A study of Saccharomyces cerevisiae with 4 samples.

Results

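The data described here are 1 spotted microarray with 2 colours, on which messenger RNA of budding yeast lacking the SnAC domain of Snf2 was compared with RNA of its wild type. The column for this strain was taken as deposited and centred on its median. It held a value for 5919 of the 6226 probes of the platform, and all of them are described. Where a gene had several probes their mean was used, which gave 5890 features, of which 5285 are named genes and the rest unnamed probes. The mutant strain is given in the labels as PSY3 with a SnAC domain deletion, and its wild type as PSY2, which carries Snf2-2FLAG, an epitope-tagged Snf2. The labels name the tag for PSY2 alone and do not say whether PSY3 is 1 clone or several. The background is a second array on which PSY2 RNA was hybridised against itself. Further arrays held a Δsnf2 strain against BY4741 and BY4741 against itself, and are used to show where the domain deletion departs from loss of the whole protein. Cultures of all strains were grown at 25 C in YPD, which is rich in glucose, and reached an optical density of 0.8. Each group is 1 array, so no value has a replicate error and nothing was tested. The sources used here do not say whether the channels of a self-hybridisation held separate cultures.

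SWI/SNF is a complex that uses ATP to slide and evict nucleosomes, and it is recruited by activators to the promoters of inducible genes. Snf2 is its motor subunit. The SnAC domain lies beside the motor of Snf2 and couples ATP hydrolysis to nucleosome movement. In yeast the complex is known for its work at inducible genes, among them the acid phosphatase PHO5 and the invertase SUC2. On rich medium it is also known for keeping SER3 silent through transcription of the neighbouring SRG1 RNA.

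Ratios are log2 values of mutant over wild type, minus the median of the array, and a positive value marks a transcript that is higher in the SnAC deletion, relative to the typical gene. The deposited values do not state their log base, and all folds assume base 2. A feature is counted as higher or lower if it lies at least 2-fold, or 1 log2 unit, from the array median. By this rule 51 of 5890 features were higher, 0.866% of those measured, and 70 were lower, 1.19%. The self-hybridisation of the wild type, centred in the same way, had 5 of 5669 features higher, 0.0882%, and 12 lower, 0.212%. At a 3-fold limit the SnAC deletion held 12 higher and 32 lower features and the self-hybridisation 3 and 0. At 8-fold it held 2 and 4, and at 16-fold 1 and 3. Far from the median the array thus held more low than high features. The 70 lower features included 10 reading frames of Ty retrotransposons with a median of -2.21, whose probes stand for a family and not for separate genes. The middle of the 2 arrays was alike. Their quartiles ran from -0.13 to 0.15 on the SnAC array and from -0.15 to 0.15 on the wild-type array. Of the SnAC features 94.3% lay within 1.5-fold of the median, against 97.4% on the self-hybridisation. The spread estimated from the median absolute deviation was 0.20 and 0.22, while the SD over all features was 0.36 and 0.25. In RNA of a whole culture, fewer cells in a state and less RNA per cell cannot be told apart.

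**Figure D1:**
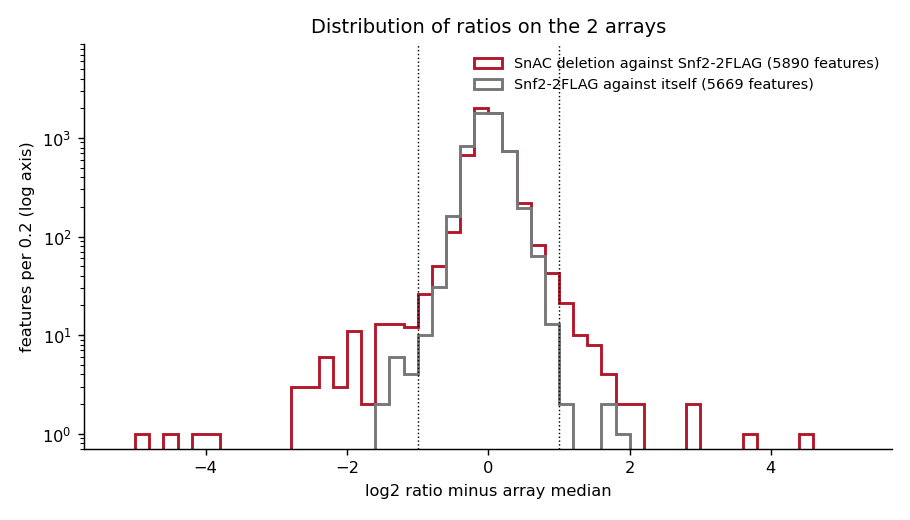
Histogram of log2 ratios minus the array median in bins of 0.2, with the number of features on a log axis, for the SnAC deletion array (red) and the Snf2-2FLAG self-hybridisation (grey). The dotted lines mark 2-fold. The centres of both histograms overlap, and beyond 4-fold there were 6 higher and 19 lower features on the SnAC array and 0 on the wild-type array. The 19 include Ty reading frames, whose probes stand for a family.

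The split between higher and lower depended on where 0 was set. The SnAC column as deposited had a median of -0.39, a factor of 1.31 below 1, and 93.2% of its features were below 0. Centred, 42.1% of the features past 2-fold were higher. As deposited the share was 12.1%, with 20 higher and 145 lower. When the self-hybridisation was subtracted without centring either array it was 6.32%, and with both centred it was 49.3%. Every value that follows is relative to the array median. As deposited each is lower by the same 0.39, so a value between 0 and 0.39 here was below 0 there.

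None of the features past 2-fold that also had a value on the self-hybridisation was as far from the median there. Of these, the 48 higher features had a median of -0.11 on the wild-type array, and 30 of them were on the other side of 0. The 65 lower features had a median of 0.08 there, with 44 on the other side. The share of all features on opposite sides was not counted, so these counts do not set the features past 2-fold apart from the rest. Only 4 of the features past 2-fold on the SnAC array were past 2-fold on the wild-type array, all on the opposite side. These were GLK1 at -1.32, TSL1 at -1.23, and the adjacent reading frames BSC1 and YDL038C at 1.78 and 1.79. HSP12 had the highest wild-type value among the higher features, 0.78, against 2.86 on the SnAC array. The other features past 2-fold on the wild-type array that had a SnAC value were within 2-fold on the SnAC array. The J-protein co-chaperone SIS1 read -1.52 there and -0.16 here, the small heat shock protein HSP42 -1.42 and 0.70, and the RNA helicase DBP2 1.12 and 0.11. OLE1, the fatty acid desaturase, was high on both, at 1.02 and 0.96. How the channels of the wild-type array came to differ, and the part of that difference in the SnAC ratios, was not tested.

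**Figure D2:**
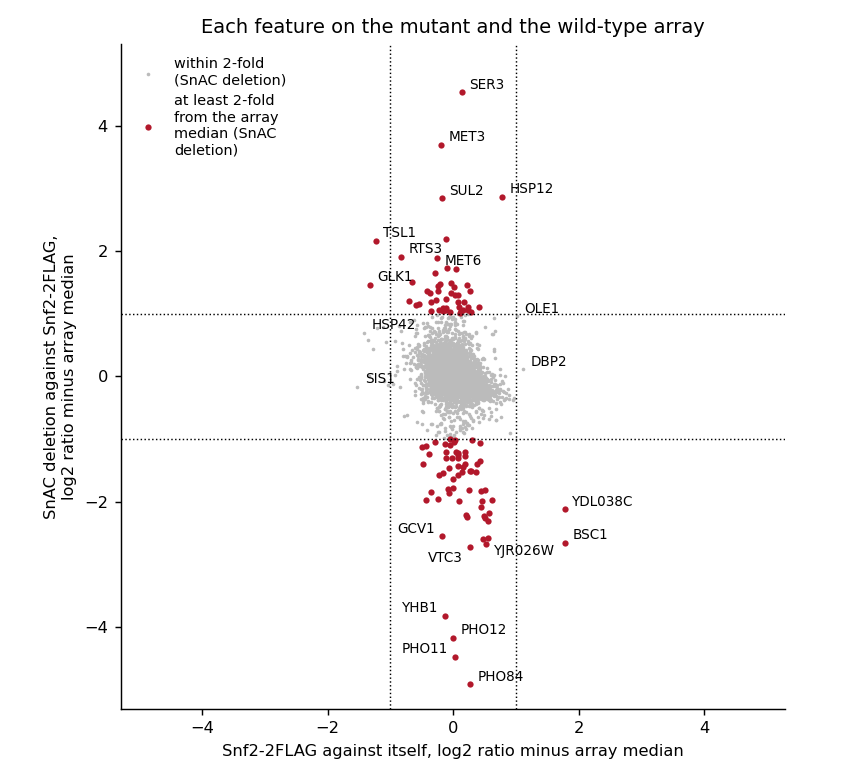
Each point is a feature with a value on both arrays, with its log2 ratio minus the array median on the Snf2-2FLAG self-hybridisation (x axis) and on the SnAC deletion array (y axis). Red points are at least 2-fold from the median on the SnAC array and the dotted lines mark 2-fold. The red points form a vertical band near 0 on the x axis, from PHO84 at -4.91 to SER3 at 4.53, with BSC1 and YDL038C to the right and TSL1 and GLK1 to the left.

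Genes of phosphate acquisition held the lowest values of the array. All 4 measured acid phosphatases, secreted enzymes that release phosphate from organic esters, were lower, against 1.19% of all features. PHO11 read -4.47 on the SnAC array and 0.04 on the self-hybridisation, and PHO12 read -4.16 and 0.01. PHO5, the main repressible enzyme, read -2.21 and 0.20. PHO3, the thiamine-repressible enzyme encoded beside it, read -1.57 and 0.08. All 4 were thus low on the SnAC array and near the median on the self-hybridisation, between 22.1-fold for PHO11 and 2.96-fold for PHO3. PHO11 and PHO12 are near-identical copies, so their probes may report on each other. Of 5 measured transporters only PHO84, the high-affinity symporter, was past 2-fold, at -4.91 against 0.27 on the wild-type array, 30.1-fold lower. The low-affinity transporters PHO90, PHO87 and PHO91 read -0.16, 0.33 and 0.21, and the glycerophosphoinositol transporter GIT1 read -0.07. PHO89, the sodium-coupled transporter, had no value.

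Genes for storing phosphate were also low. Of 9 genes for polyphosphate and vacuolar phosphate 4 were lower and none higher, and their median was -0.90 against 0.01 on the self-hybridisation. The polyphosphate polymerase of the vacuole is the VTC complex. Its subunit VTC3 read -2.73, the catalytic subunit VTC4 -1.82, VTC1 -1.30, VTC2 -0.90 and VTC5 -0.65. All 5 subunits were on the low side, although 2 of them were within 2-fold. The vacuolar alkaline phosphatase PHO8 read -1.30. The polyphosphatases PPX1 and PPN1 read -0.11 and 0.41, and PPN2, which was not on the list and was named after its value was seen, read -1.31. As deposited, without centring, 6 of the 9 were past 2-fold lower.

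Of 9 measured regulators of the pathway 6 were below 0, and their list had a median of -0.19 against 0.07 on the self-hybridisation. PHO81, which inhibits the Pho80-Pho85 kinase when phosphate is scarce and is itself a target of the pathway, read -1.50 against 0.27 on the wild-type array. It was the only one of 9 measured regulators past 2-fold. The transcription factors PHO4 and PHO2 read -0.01 and 0.29, and the kinase subunits PHO80 and PHO85 0.04 and 0.06. SPL2, which restrains low-affinity transport, lay just short of 2-fold at -0.99, and the inositol pyrophosphate kinases VIP1 and KCS1 read -0.74 and -0.19. PHO86, also on this list, read -0.59. The transcripts that were far down were thus those of the effectors and of PHO81, and those of the factors that bind their promoters were within 1.5-fold.

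Most genes of sulphate assimilation were high. Of 10 measured genes from sulphate permeases to sulphite reductase 6 were higher, against 0.866% of all features, and the median was 1.38 against -0.10 on the self-hybridisation. In the order of the pathway, the sulphate permease SUL2 read 2.84, ATP sulphurylase MET3 3.70, APS kinase MET14 1.65, PAPS reductase MET16 0.41, and the sulphite reductase subunits MET5 and MET10 1.29 and 1.49. MET1, which helps to make the sirohaem of sulphite reductase, read 1.48, and MET8, which acts in the same branch, read 0.60. The other permease, SUL1, read -0.18 and the PAP phosphatase MET22 read 0.07. On the wild-type array these 10 genes lay within 1.5-fold of the median. As deposited 5 of the 10 remained past 2-fold, with MET5 the one that did not.

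From sulphide to methionine the picture was mixed. Of 14 genes for homocysteine, methionine and S-adenosylmethionine 3 were higher: MET2, the homoserine acetyltransferase, at 1.72, MET6, the methionine synthase, at 1.89, and MET13, the folate reductase that serves it, at 1.19. MET17, which joins sulphide to O-acetylhomoserine, read 0.53. The S-adenosylmethionine synthetases SAM1 and SAM2 read -0.39 and 0.38, and SAM4, a homocysteine methyltransferase, -0.57. The median of the list, 0.17, turned to -0.22 as deposited. Among genes for transsulphuration and permeases, STR3, a cystathionine beta-lyase, read 1.46, the high-affinity methionine permease MUP1 1.32 and the S-methylmethionine permease MMP1 0.74. CYS3 and CYS4, which convert homocysteine toward cysteine, read 0.65 and -0.45. Of the regulators, MET28, a cofactor of Met4, was past 2-fold at 1.33. The activator MET4 read -0.03, the ubiquitin ligase subunit MET30 0.68 and the DNA-binding factor CBF1 -0.61.

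SER3, which catalyses the first step of serine synthesis, was the highest gene of the array at 4.53, or 23.1-fold, against 0.14 on the self-hybridisation. Its isoenzyme SER33 read 1.03, and cross-hybridisation between the pair is possible. The later steps were near the median, with SER1 at -0.01 and SER2 at -0.22, so the 2 highest of the 6 measured serine genes were the isoenzymes of the first step. CHA1, the serine deaminase, read -0.89. The 3 genes dedicated to glycine cleavage were all lower. GCV1 read -2.55, GCV2 -1.43 and GCV3 -1.05, while LPD1, the subunit shared with other dehydrogenases, read 0.17. The cytosolic serine hydroxymethyltransferase SHM2 read -0.31 and the methylenetetrahydrofolate dehydrogenase MTD1 -0.43. On the self-hybridisation the 3 cleavage genes read -0.17, 0.08 and -0.29.

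**Figure D3:**
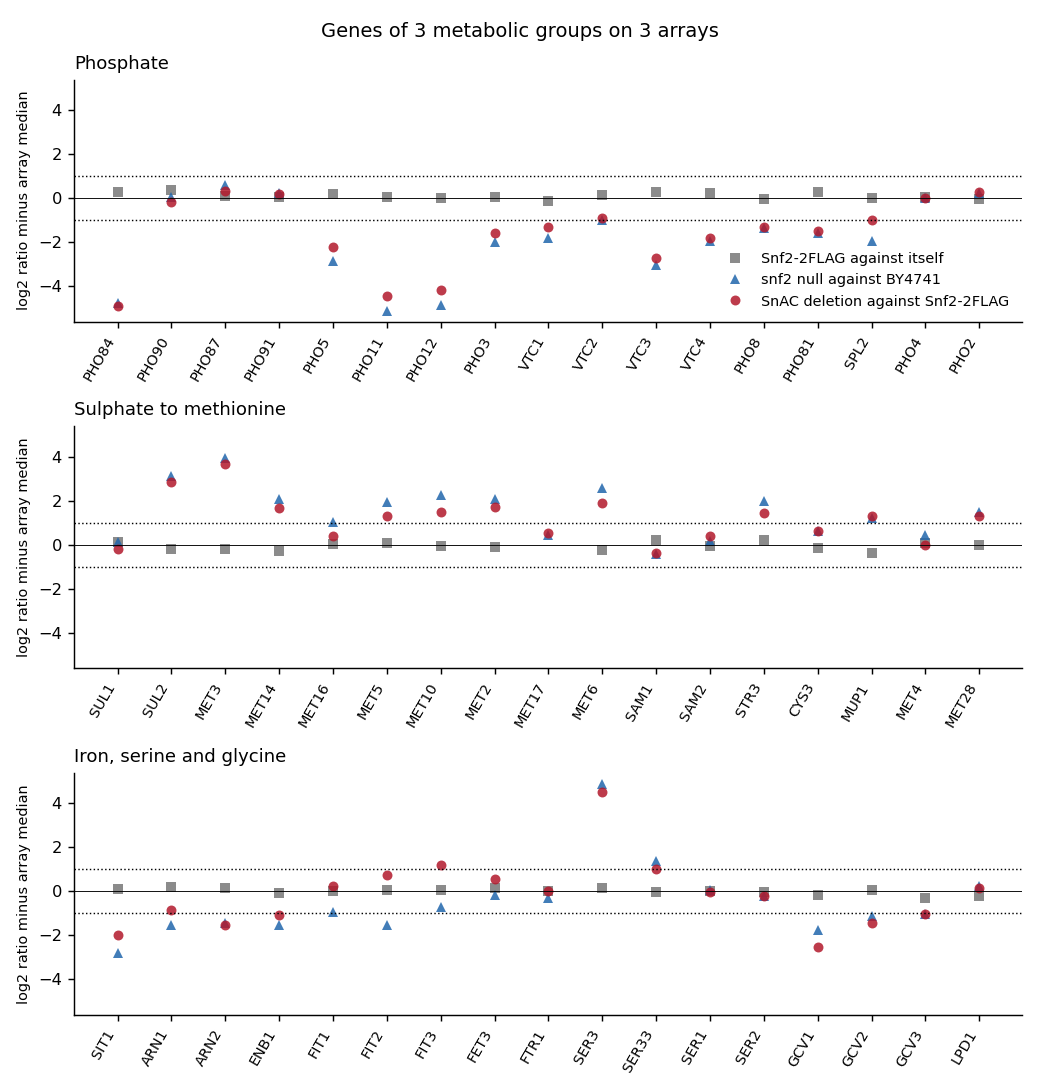
Log2 ratio minus the array median (y axis) of individual genes (x axis) for phosphate, sulphate to methionine, and iron, serine and glycine, on the Snf2-2FLAG self-hybridisation (grey squares), the SnAC deletion array (red circles) and the snf2 null array (blue triangles). Dotted lines mark 2-fold. Red and blue symbols lie close together far from 0 for PHO84, PHO11, MET3 and SER3, they part for FIT2 and FIT3, and the grey squares stay near 0.

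In other amino acid pathways single genes rather than groups were past 2-fold. Most genes of histidine synthesis, 6 of 7, were still below 0, with a median of -0.20. For branched-chain amino acids 10 of 12 were, also with a median of -0.20. HIS4, which catalyses several steps of histidine synthesis, read -1.54, and the other 6 measured genes of that list were within 2-fold. BAT2, the cytosolic branched-chain aminotransferase, read -1.85 and its mitochondrial counterpart BAT1 -0.19. ASN1, 1 of a pair of asparagine synthetases, read -1.26. ARO10, a decarboxylase of the Ehrlich pathway, read -1.13, and was also low on the wild-type array at -0.50. CAR2, the ornithine aminotransferase, read -1.96 while the arginase CAR1 read 0.22. PUT4, the proline permease, read 1.18. Arginine synthesis stood at the array median, 0.02 over 8 genes with a range of 0.48, which was -0.37 as deposited. Of 8 lysine genes 7 were below 0 with a median of -0.19 and none past 2-fold. Purine and pyrimidine synthesis had medians of -0.11 and -0.08 over 10 genes each, none past 2-fold, against 0.26 and 0.20 on the self-hybridisation.

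Genes for the siderophore route of iron uptake lay on both sides of the median. SIT1, ARN2 and ENB1, transporters of iron bound to siderophores, read -1.98, -1.53 and -1.10, and ARN1 read -0.84. The cell wall mannoproteins that retain siderophores were on the other side, FIT3 at 1.18, FIT2 at 0.72 and FIT1 at 0.25, although FIT1 was below 0 as deposited, at -0.145. All 7 lay within 0.20 of the median on the self-hybridisation. The 7 genes thus gave 1 higher, 3 lower and a median of -0.84, which describes neither subgroup. Of 17 measured genes for reductive uptake and its regulators none was past 2-fold, and the median was 0.03, which turned to -0.36 as deposited. The ferrireductases FRE1 and FRE2 read -0.73 and -0.76, the multicopper oxidase FET3 0.56 and the low-affinity transporter FET4 0.70. The copper list had a median of -0.15, near the -0.18 of the self-hybridisation and 0.02 after its subtraction, with FRE7 lowest at -0.83 and the high-affinity transporter CTR1 at -0.64. ZRT1, the high-affinity zinc transporter, read -0.69 against 0.57 on the wild-type array.

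YHB1, the flavohaemoglobin that oxidises nitric oxide, was 14.1-fold lower, at -3.82 against -0.12 on the self-hybridisation. SFA1, which acts on S-nitrosoglutathione, read -0.09. Among 17 thioredoxin and glutathione genes GPX2, a glutathione peroxidase, was the only one past 2-fold, at -1.97 against -0.43, and the peroxiredoxin AHP1 was the highest at 0.83.

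All 7 a-specific genes, which are transcribed only in cells of mating type a, were below 0, with a median of -0.73 against -0.01 on the self-hybridisation. BAR1, the protease that cleaves alpha factor, read -1.20, and the a-factor gene MFA1 -1.11. MFA2 read -0.73 and the agglutinin subunit AGA2 -0.76, and on the wild-type array MFA1, MFA2 and AGA2 also lay below 0, at -0.43, -0.58 and -0.34. STE6, the a-factor exporter, read -0.59, the alpha factor receptor STE2 -0.06 and ASG7 -0.01. With the wild-type array subtracted, both centred, the median was -0.42 and only BAR1 remained past 2-fold. The 3 measured alpha-specific genes had a median of -0.02. Of 16 pheromone response genes FAR1, which arrests the cycle, was past 2-fold at -1.05. The kinase FUS3 read -0.91 and SST2, which damps the signal, -0.85, while FIG2, a cell wall protein of mating, read 0.69. The median of that list was -0.14.

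Of 22 measured genes of the general stress response under Msn2 and Msn4 4 were past 2-fold higher, against 0.866% of all features. A total of 19 were above 0, or 14 as deposited, with a median of 0.72 against -0.36 on the self-hybridisation and 0.33 as deposited. HSP12, a protein that stabilises membranes, read 2.86. YGP1, a secreted glycoprotein, read 1.499 against -0.66 on the wild-type array, SOL4, of the pentose phosphate pathway, 1.36 against -0.41, and the catalase CTT1 1.10 against -0.11. The lowest of the list was DDR48, named after its value was seen, at -0.70. With the centred wild-type array subtracted 12 of the list were past 2-fold. The trehalose synthase subunit TSL1 read 2.16 against -1.23, and the catalytic subunits TPS1 and TPS2 read 0.81 and 0.82 against -0.87 and -0.58. The median of the 7 trehalose genes, 0.27, was -0.12 as deposited. HSP26, a small heat shock protein, read 1.06 and HSP104, the disaggregase, 0.01. Chaperones under Hsf1 had a median of -0.14 with 0 of 17 past 2-fold, and their median turned to 0.24 after subtraction of the centred wild-type array, on which it was -0.36. The part of the wild-type array's own values in these ratios was not tested.

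All 9 measured hexose transporters were above 0, but only 6 were as deposited. Their median of 0.57, against 0.21 on the self-hybridisation, was 0.18 as deposited and turned to -0.22 when the self-hybridisation was subtracted without centring. HXT4 was past 2-fold at 1.02. HXT9 read 0.78, HXT1 0.68, HXT5 0.67 and HXT6 0.57, and the lowest was HXT3 at 0.07. HXT1 and HXT5 were about as high on the wild-type array, at 0.64 and 0.62, and HXT2 and HXT3 were higher there, each at 0.54, than on the SnAC array, where HXT2 read 0.13. Members of this family are similar in sequence, and cross-hybridisation is possible. GLK1, the glucokinase, read 1.46 against -1.32 on the wild-type array, and the hexokinase HXK1 0.87 against -0.69. SUC2, the invertase, read 0.16. The 16 measured genes of glycolysis and fermentation had a median of 0.11 with none past 2-fold, which turned to -0.28 as deposited and to -0.06 after subtraction of the centred wild-type array.

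Of 28 measured genes of the respiratory chain and ATP synthase 27 were above 0, or 15 as deposited, and none was past 2-fold. Their median was 0.43 with an SD over genes of 0.19, against -0.31 on the self-hybridisation and 0.03 as deposited. The ATP synthase subunits ATP14 and ATP3 read 0.73 and 0.71, and CYT1, cytochrome c1, named after its value was seen, was the 1 gene below 0, at -0.17. The TCA cycle had a median of 0.27, which turned to -0.12 as deposited. AAC1, a minor ADP/ATP carrier, read 1.75 and had no value on the self-hybridisation, and the major carrier PET9 read 0.73. ALD4, the mitochondrial aldehyde dehydrogenase, read 1.20 against -0.70 on the wild-type array, and ADR1, the activator of ethanol-use genes, 0.91 against 0.02. Of the 12 genes of ethanol, acetate and fatty acid use ALD4 was the only one past 2-fold, and their median was 0.01, which turned to -0.38 as deposited. GUT2, the mitochondrial glycerol-3-phosphate dehydrogenase, read 1.36. Mitochondrial ribosomal proteins stayed close to the array median, at 0.04 over 72 genes, or -0.35 as deposited.

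Genes of translation sat slightly below the median with little spread. Of 133 measured cytosolic ribosomal protein genes 125 were below 0, the median was -0.20, the SD over genes 0.11, and none was past 2-fold. The lowest was RPS29A at -0.42, and the highest was RPS23B at 0.25. Their median on the self-hybridisation was -0.09, and after its subtraction, both centred, 89 of 128 genes were below 0. Over 54 pairs of duplicated ribosomal protein genes the copies differed by a median of 0.06. The widest pair was RPL22, with RPL22A at 0.08 and RPL22B at -0.38. RPS23B and RPL22A were named after their values were seen. Near-identical copies may share signal, so small differences within a pair are not independent readings. Of 47 ribosome biogenesis genes 43 were below 0 and the median was -0.22, against 0.51 on the wild-type array, where they lay on the opposite side. All 18 aminoacyl-tRNA synthetases were below 0, with a median of -0.18 against 0.17. The proteasome was at 0.01 over 33 genes, or -0.38 as deposited, and its activator RPN4 was highest of that list at 0.93.

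Among chromatin genes, the other subunits of SWI/SNF were near the median. SNF2 itself had no value on this array or on the self-hybridisation, so the deletion could not be checked by its probe. The 11 measured subunits ran from -0.01 for RTT102 to 0.40 for SWI1, with a median of 0.12, and as deposited the median was -0.27. RSC, a remodeler related to SWI/SNF, had a median over its subunits of -0.01 and a range of 0.25. All 10 histone genes were above 0, although HHO1, HTA1 and HTZ1 were below it as deposited, with a median of 0.59 against -0.28 on the self-hybridisation and 0.19 as deposited, and none was past 2-fold. The H4 genes HHF1 and HHF2 read 0.85 and 0.78 and the H3 genes HHT1 and HHT2 0.77 and 0.77, while the variant H2A.Z gene HTZ1 read 0.26 and the linker histone HHO1 0.19. The 4 genes for H3 and H4 therefore lay above HTZ1 and HHO1, but each pair of copies is nearly identical in sequence. The H2A genes HTA1 and HTA2 read 0.22 and 0.47 and the H2B genes HTB1 and HTB2 0.435 and 0.70, so HTA1 lay below HTZ1.

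**Figure D4:**
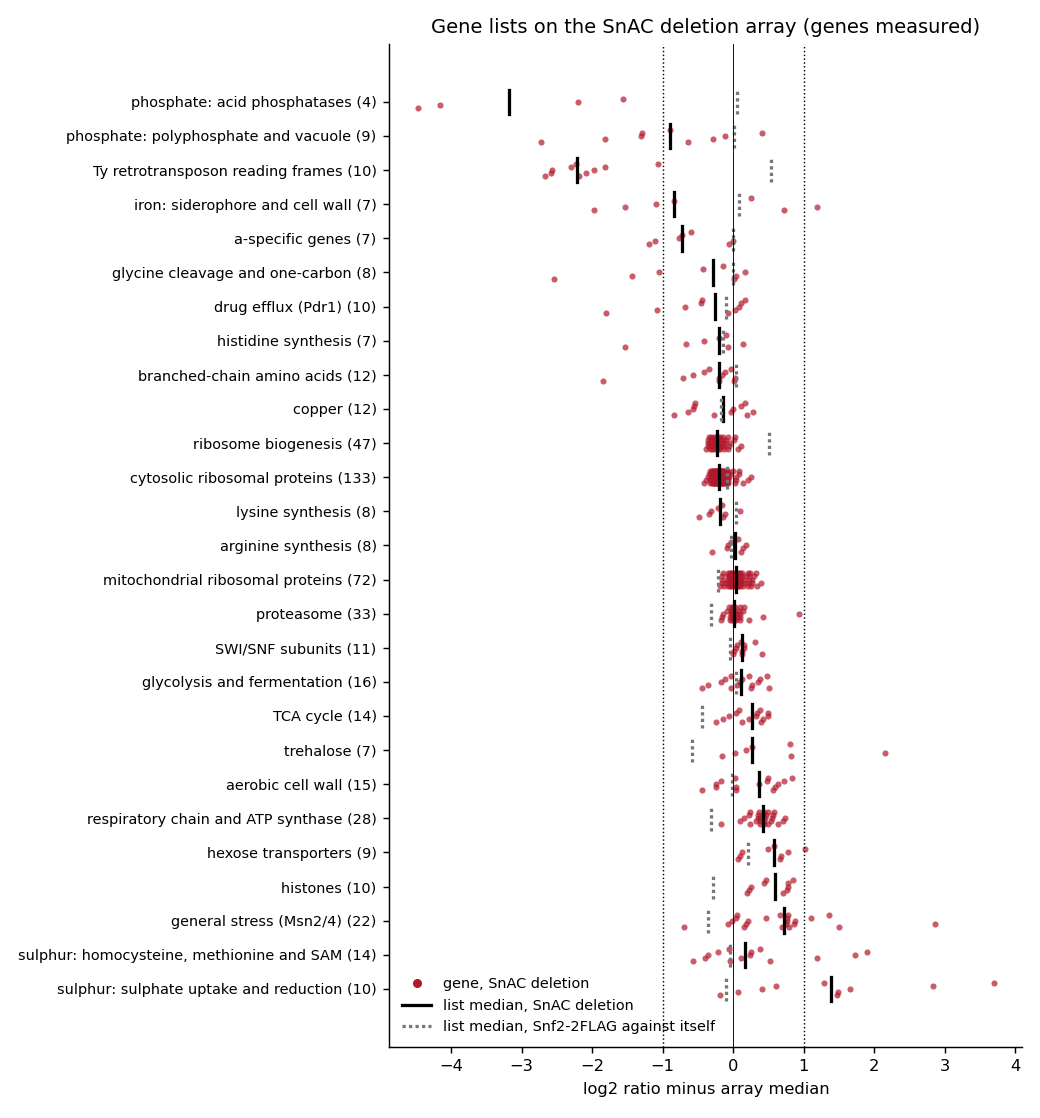
Log2 ratio minus the array median (x axis) on the SnAC deletion array for the genes (red points) of 27 of the 79 lists, with the number of genes measured in brackets. Black bars are list medians on the SnAC array, grey bars are medians on the Snf2-2FLAG self-hybridisation, and dotted lines mark 2-fold. Acid phosphatases and Ty reading frames lie at the left and sulphate genes at the right, while respiration, histone and ribosomal protein genes form narrow clusters within 2-fold. As deposited, every point would lie 0.39 lower, which puts the medians of the TCA cycle, trehalose, homocysteine, glycolysis, aerobic cell wall, SWI/SNF, arginine, proteasome and mitochondrial ribosomal protein lists below 0.

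Of 10 measured genes of drug efflux under Pdr1 2 were lower, against 1.19% of all features, and none was higher. On this list 4 genes were above 0 and the median was -0.26, against -0.10 on the self-hybridisation. PDR5, the main efflux pump, read -1.80 against -0.09 on the wild-type array and the polyamine transporter TPO1 -1.08. PDR3, an activator of the pumps, read -0.69, SNQ2 -0.46 and YOR1 -0.44. Lipid genes held opposite extremes within a list. FAA3, an acyl-CoA synthetase, read -1.40, while its relative FAA4 read 0.92 and was also high on the wild-type array at 0.65. The sterol regulator ECM22 read 0.995, and the isoenzymes of HMG-CoA reductase HMG1 and HMG2 -0.72 and -0.71. CHO2, of phosphatidylcholine synthesis, read -0.93. In the cell wall, TIR1, a mannoprotein of anaerobic cells, read -1.85 and the aerobic transglycosylase CRH1 0.84. Of cell cycle genes the mitotic cyclin CLB1 read -0.97 and CLB2 0.25. CLN3, the G1 cyclin that senses growth, read 1.36 against 0.27 on the self-hybridisation. Of 12 genes of daughter cells and the M/G1 interval 11 were below 0 with none past 2-fold, and the lowest were ASH1 at -0.79 and EGT2 at -0.77.

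Reading frames of the Ty retrotransposons, a list drawn up after their values were seen, were low throughout. Of 23 on the platform 10 had a value, all 10 were past 2-fold lower, and their median was -2.21. YJR026W was lowest at -2.67 and YCL019W highest at -1.07. On the self-hybridisation the 16 measured frames lay above 0, with a median of 0.54. Copies of Ty are nearly identical, so these probes stand for a family and not for 10 separate genes. BSC1 and YDL038C, neighbours on chromosome IV, read -2.66 and -2.12. On the self-hybridisation they read 1.78 and 1.79, and the next gene, PRM7, read 1.89 there and had no value on the SnAC array. These were the highest values of the wild-type array and the SnAC values lay on the other side, and the part of that wild-type difference in the SnAC ratio was not tested.

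Over the 79 lists, 14 held at least 1 gene past 2-fold higher, 21 held at least 1 lower and 46 held none. In 3 lists every measured gene was past 2-fold: the acid phosphatases, the Ty frames, and the measured genes around BSC1. Of the 109 named genes past 2-fold, 68 were on a list and 41 were not. The lists held 1098 of the 5285 named genes measured. They were chosen with earlier results of these data known, so the count of 68 does not measure how well they cover the response. Among the latter were RTS3, a component of a protein phosphatase, at 1.91 against -0.83 on the self-hybridisation, NQM1, a transaldolase, at 1.71, and the autophagy gene ATG41 at 1.48. At the low end were NDJ1, a meiotic telomere protein, at -2.25, MOR1 at -2.25, CSS1 at -2.20, and MRH1, a plasma membrane protein, at -1.64. IRC7, a cysteine desulphydrase, read -1.77.

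The values near the limit showed no gap. Just past 2-fold were YPS6, a protease of the yapsin family, at 1.02 and FDC1, a decarboxylase of phenolic acids, at -1.01. Just short of it were the elongation factor SPT6 at 0.995 and the ubiquitin protease UBP12 at -0.99. YPS6, FDC1, SPT6 and UBP12 were chosen because they lie at the limit.

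The position of a gene was not used in choosing the features. Medians of the 16 chromosomes ran from -0.03 for chromosome V to 0.05 for chromosome VI. The 10 outermost measured genes of each chromosome end, 320 in all, had a median of 0.05 against 0.00 for the other 4947 placed genes. At the ends 0.625% of genes were higher and 2.50% lower, and elsewhere 0.889% and 1.07%. The counts behind the shares at the ends were 2 and 8 genes. Among 4651 measured pairs of adjacent genes 8 had both members past 2-fold: 5 pairs lower, 2 higher and 1 in opposite directions. The lower pairs included PHO3 with PHO5, PHO81 with YHB1, and BAT2 with HMS2, a gene at -1.45. The remaining lower pairs were Ty frames, YBR012W-B with YBR012W-A and YCL019W with YCL020W, whose probes stand for a family and not for separate genes. The higher pairs were SOL4 with MGA1 at 1.11 and PUT4 with PYK2, a second pyruvate kinase, at 1.15. The opposite pair was NQM1 at 1.71 and RME1, a repressor of meiosis, at -1.24. HMS2, MGA1, PYK2 and RME1 were named after their values were seen. Around the 10 highest and 10 lowest genes, 25 of 30 measured neighbours lay within 1.5-fold of the median, against 94.3% of all features. Past 2-fold were 3 of the 30, namely PHO81, RME1 and the Ty frame YBR012W-B, against 0.866% of all features higher and 1.19% lower. TUB3 beside PHO84 read 0.28 and MIC26 beside YHB1 0.30. NYV1 and GEP5 around SUL2 read 0.26 and 0.14. Of 58 measured genes next to Ty elements 2 were lower, MOR1 and NDJ1, against 1.19% of all features. The median of the 58 was 0.03. Across 5267 genes the ratio had a Spearman rho of -0.06 with gene length, as a description over genes of 1 array. The same coefficient was 0.44 over 4908 genes on the self-hybridisation.

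Set beside the loss of the whole protein, most features past 2-fold in the SnAC deletion had smaller ratios there than in the null, in the same direction. The snf2 null array, centred in the same way, had 76 of 6031 features higher, 1.26%, and 96 lower, 1.59%. Each mutant was hybridised to its own wild type, and strain background differs with the mutation, so mutation and background cannot be told apart. Of 50 SnAC-higher features with a value in the null 49 were above 0 there and 42 were past 2-fold. Of 68 SnAC-lower features all were below 0 in the null and 64 were past 2-fold. The null value was the larger in size for 34 higher and 51 lower features. The median over features of the SnAC value divided by the null value was 0.86 for the higher and 0.84 for the lower. Over all features the null array was also the wider, with an SD of 0.44 against 0.36 on the SnAC array. Its spread from the median absolute deviation was 0.255 against 0.205. Whether the smaller ratios go beyond this difference between the arrays was not tested. PHO84 was an exception, at -4.91 with the domain deleted and -4.75 in the null, and so was GCV1, at -2.55 and -1.75. In the other direction, of 74 null-higher features with a SnAC value 13 did not reach 1.5-fold higher in the SnAC deletion. Of 91 null-lower features 6 did not reach 1.5-fold lower. These counts include features on the other side of 0, among them FIT2 and PTR2, which were low in the null and above 0 in the SnAC deletion.

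Over 5790 features the arrays differed by a median of 0.11 in size. They lay at least 2-fold apart for 18 features, 13 higher in the SnAC deletion, 0.225%, and 5 lower, 0.0864%. The mannoproteins of siderophore retention were on opposite sides. FIT2 read 0.72 with the domain deleted and -1.55 in the null, FIT3 1.18 and -0.71, and FIT1 0.25 and -0.93, though the SnAC value of FIT1 was below 0 as deposited. The siderophore transporter SIT1, from the same list, was low in both, at -1.98 and -2.81. PTR2, the peptide transporter, read 0.61 and -1.29. The membrane protein INA1 read -0.26 and -1.77, the phospholipase PLB2 -0.69 and -1.86, and ZEO1, of the cell wall integrity pathway, -1.39 and -2.72. TIR1 and CAR2 were low in both and lower in the null, at -2.96 and -3.12 there. Each of FIT2, FIT3, PTR2, ZEO1 and TIR1 stayed more than 2-fold apart when each mutant had its own self-hybridisation subtracted, and INA1, FIT1 and CAR2 did not.

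The count of 5 features lower in the SnAC deletion against 13 higher turned to 14 lower and 11 higher when each mutant had its own self-hybridisation subtracted. ARG1, argininosuccinate synthetase, read 0.11 against 2.08, and ARG4, argininosuccinate lyase, 0.07 against 1.34. ARG7, an ornithine acetyltransferase, read -0.30 against 0.66. The median of the arginine list was 0.02 with the domain deleted and 0.55 in the null. YOR338W read -0.70 against 0.38 and ADR1 0.91 against 1.82. In the TCA cycle the aconitase ACO1 read -0.24 against 0.59 and IDH1, a subunit of isocitrate dehydrogenase, 0.43 against 1.16. ARG7, ADR1, ACO1 and IDH1 were less than 2-fold apart. With each self-hybridisation subtracted ARG1 and ARG4 differed by -1.81 and -1.04, ARG7 and ADR1 by -0.96 and -1.42, and ACO1 and IDH1 by -0.52 and -0.365. None of these differences has a replicate behind it.

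**Figure D5:**
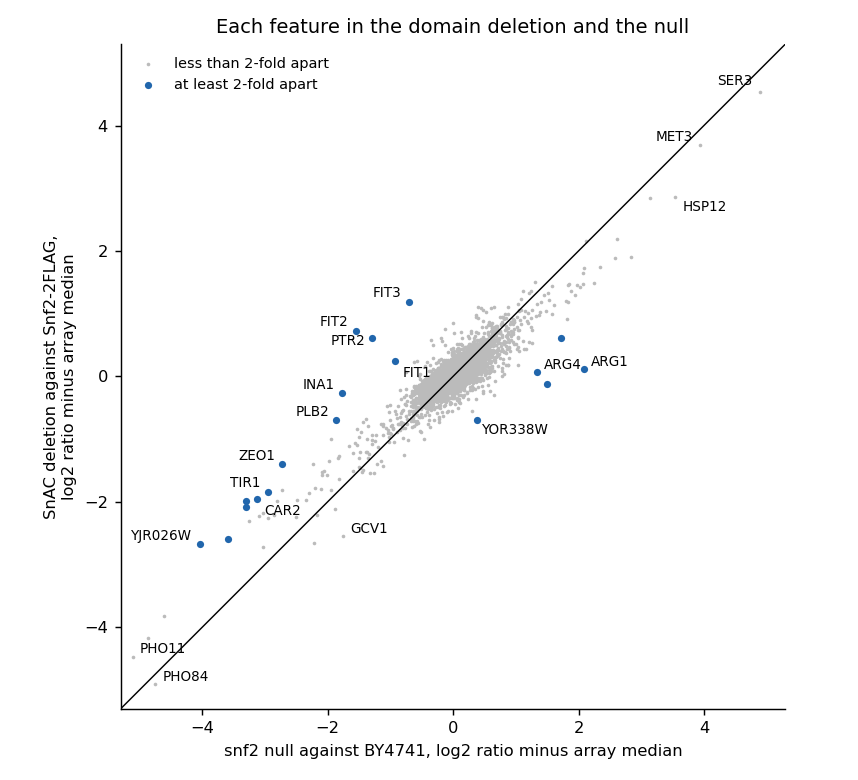
Each point is a feature with its log2 ratio minus the array median in the snf2 null against BY4741 (x axis) and in the SnAC deletion against Snf2-2FLAG (y axis), and the line marks equal values. Blue points lie at least 2-fold apart. Points at both ends lie near the line, with SER3 at 4.53 and 4.89 and PHO84 at -4.91 and -4.75, while FIT2, FIT3 and PTR2 lie well above it and ARG1 well below.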

How the data were processed

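Per the labels, poly(A) RNA was purified from hot-phenol extracts, Bacillus subtilis transcripts were added as controls by culture density, and cDNA was coupled to Cy3 and Cy5. The named strain was in channel 1 and the wild type in channel 2, and each sample named 2 scans of opposite dye orientation but had 1 value per probe. The deposited values were log ratios, read as log2 ratios; the base, background correction, scaling and joining of the scans are not given in the sources used here. No signal levels were used, so the precision rests on the number of arrays, 1 per group.

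Values were centred on the median of their array, and 30 genes with several probes were represented by their mean. Their probes differed by a median of 0.14 on the SnAC array. Of 6226 probes 5578 had a gene name in the platform annotation and 648 had none, and 5573 of the named ones matched the R64 gene table used for current symbols, gene order and length. Probes without a value on the SnAC array numbered 307, or 305 features, and 7 features past 2-fold in the null were among them.

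A call was a distance of at least 2-fold from the array median. With 1 array per group no test was made. The counting rule was tested on simulated data, made by adding fixed shifts to self-hybridisation values. That checks the arithmetic of the limit and not the calls on the SnAC array. The lists of genes and the comparisons were chosen with earlier results of these data known, and the Ty list after its values were seen. Named genes are the 30 highest and 30 lowest, members of lists that passed 2-fold and up to 6 others of each list, all members of lists of 12 or fewer, SWI/SNF subunits, the 15 largest differences from the null in each direction, genes past 2-fold on the self-hybridisation, and neighbours of the 10 highest and 10 lowest. Others are identified where they appear. Promoter motifs were planned but not analysed here. Alternatives were other zeros, subtraction of the self-hybridisation, other folds, natural logs and other sets of features. Python 3.11.15, numpy 2.4.6, pandas 2.3.3, scipy 1.17.1 and matplotlib 3.10.9 were used.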

Additional observations from a re-analysis of the deposited data

Results flagged for a closer look

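FIT2, FIT3 and PTR2 stood out because they lay on opposite sides of 0 in the mutants. In the SnAC deletion FIT2 read 0.723, FIT3 1.184 and PTR2 0.609, and in the snf2 null they read -1.55, -0.706 and -1.288. Each comparison rests on 1 array per strain, so the difference was not tested. As deposited the SnAC values were 0.33, 0.79 and 0.22, still above 0.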

How the results depend on the processing

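The 51 higher and 70 lower features depended mainly on the zero and the limit. As deposited there were 20 and 145. With the self-hybridisation subtracted there were 102 and 105 if both arrays were centred, and 33 and 489 if neither was. At 1.5-fold there were 184 and 151, at 3-fold 12 and 32, and with the values read as natural logs 137 and 122. Centring on the mean of the central values, counting probes singly, named genes alone, features measured on the self-hybridisation, and removal of features at least 1.5-fold from its median gave 44 to 51 higher and 62 to 70 lower. Removal of Ty frames, chosen after seeing the data, left 51 and 60, and removal of Ty frames and unnamed probes 47 and 52.

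Of the 60 extreme named genes none turned sign as deposited or with the other centring, and 11 were within 2-fold as deposited. Of the 57 that had a self-hybridisation value none turned sign after its subtraction, and 8 were within 2-fold when neither array was centred. Of the 79 list medians 35 turned sign as deposited and 16 after centred subtraction. Features lower in the SnAC deletion than in the null numbered 14 in place of 5 once each self-hybridisation was subtracted, and those higher 11 in place of 13. No paired analysis was possible because each group held 1 sample, and no array could be left out. The promoter motif description was not run.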
